A study of Mus musculus with 2 samples.

Results

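The mitochondrial ribosomal proteins build the ribosome that works inside mitochondria. Their genes were taken by symbol: protein-coding mouse genes named Mrpl or Mrps followed by a digit, with pseudogenes left out. The GENCODE annotation, release M21, held 78 such genes on 17 chromosomes, 49 of the large subunit (Mrpl) and 29 of the small subunit (Mrps). Of these, 70 had a row in the count tables, out of 21216 gene identifiers in all, and 68 had a row for both plates (43 large, 25 small). The values below are for these 68 members. Mrpl9 and Mrps30 had a row for plate 2 alone, with 1 count each, and Mrps26, Mrpl53, Mrps11, Mrps24, Mrpl27, Mrpl58, Mrpl13 and Mrpl18 were not analysed here.

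The mitochondrial ribosome translates the few messages of the mitochondrial genome, which code for core subunits of the respiratory chain and ATP synthase. Its ribosomal RNAs come from mitochondrial DNA, while every one of its proteins is coded in the nucleus, made in the cytosol and imported. Part of the proteins descend from bacterial ribosomal proteins, and the others were added during mitochondrial evolution and have no bacterial counterpart. In muscle stem cells, quiescence is associated with low metabolic activity, and activation with mitochondrial growth.

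RNA was measured in single mouse muscle stem cells, sorted by FACS into 384-well plates and copied with a modified CEL-Seq2 protocol, which tags polyadenylated RNA with a barcode for each well. Plate 1 held freshly isolated cells, which the labels call Quiescent, together with cells cultured for 96 h in DMEM containing 25 mM glucose (named high glucose). On plate 2 were cells cultured equally long in 5 mM glucose (named low glucose) or in 10 mM galactose, a sugar that yields less ATP through glycolysis. The 3 culture media shared 1 mM sodium pyruvate, serum of horse and fetal calf (10% each), bFGF at 2.5 ng/ml, chick embryo extract at 0.05%, penicillin and streptomycin; the freshly isolated cells were not cultured. Strain, genotype, age, the number of mice and the sort markers were not stated in the labels. Each condition was 1 set of wells in 6 plate rows of its own, so plate rows and condition cannot be told apart, and neither can plate and condition in a comparison across plates.

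The 4 pools held 102 freshly isolated, 113 high glucose, 120 low glucose and 121 galactose wells. Their gene counts summed to 284109, 887611, 1734279 and 2035682, with medians per well of 2536, 6747, 13371 and 14496. Levels are CPM, counts scaled to the same total of gene counts in every pool, so 1 count was worth 3.52 CPM in freshly isolated cells and 0.491 CPM in galactose. Spike-in RNA, added in equal amount to each well, gave a median of 18.3 gene counts per spike-in count in freshly isolated cells and 47.7 to 57.0 in the cultures. The 12 muscle stem cell and myoblast markers had a summed level of 6631 CPM in the freshly isolated pool. In the cultures this level was 2079, 2142 and 2169 CPM. Detection per well differed between markers. Over the 4 pools, Myod1, a regulator of the muscle lineage, was counted in 86.3% to 100% of wells and Myf5 in 57.8% to 92.6%. Others were counted less often: Pax7 in 26.5% to 52.9%, Vcam1 in 25.7% to 47.1%, Cdh15 in 12.4% to 30.6% and Des in 0.826% to 8.82%. Markers of fibro-adipogenic cells (4 of 6 with rows) summed to 1091 CPM in freshly isolated cells and 31.4 to 135 CPM in the cultures. Smooth muscle and pericyte markers (6 of 6 with rows) summed to 616 and 61.9 to 230 CPM, and endothelial markers (6 of 6) to 81.0 and 7.86 to 40.6 CPM. Wells with 3 or more markers of another cell type numbered 12, 7, 1 and 1. With 1 library per condition no test between conditions was possible, and every interval below is a 95% interval for counting error only, which does not cover variation between cultures or mice.

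Summed over the members, the level was 1496 CPM in freshly isolated cells (425 counts), 3207 CPM in high glucose (2847 counts), 3862 CPM in low glucose (6697 counts) and 4032 CPM in galactose (8207 counts). The freshly isolated pool was the lowest. The 6 plate rows of freshly isolated cells ranged from 917 to 1795 CPM, below the high glucose rows at 2866 to 3357 CPM. The low glucose rows (3720 to 4024 CPM) and the galactose rows (3829 to 4235 CPM) overlapped each other and lay above both. Plate rows are parts of 1 library and not replicates.

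In the median freshly isolated well, members made up 0.137% of gene counts (quartiles 0.0796% and 0.189%), against 0.313% in high glucose (0.240% and 0.370%), 0.377% in low glucose (0.332% and 0.434%) and 0.396% in galactose (0.358% and 0.444%). The spread between single wells was wide and the conditions overlapped: the highest freshly isolated well reached 0.452%, and the lowest high glucose well stood at 0.0888%. The variance of member counts between wells was 1.45, 1.78, 1.62 and 1.87 times what counting alone gives. A typical freshly isolated well showed 3 different members, a high glucose well 18, a low glucose well 30.5 and a galactose well 36, which also follows depth. With each well thinned to 1000 gene counts, 68.6% of freshly isolated wells still held a member count (58.7% to 77.5%), against 94.6% (88.7% to 98.0%), 98.3% (94.1% to 99.8%) and 99.2% (95.5% to 99.98%) in the cultures; 1 high glucose well was too shallow. Without thinning the shares were 97.1% and 100% in each culture. The thinned wells held on average 1.33, 3.30, 3.87 and 3.66 member counts.

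**Figure D1:**
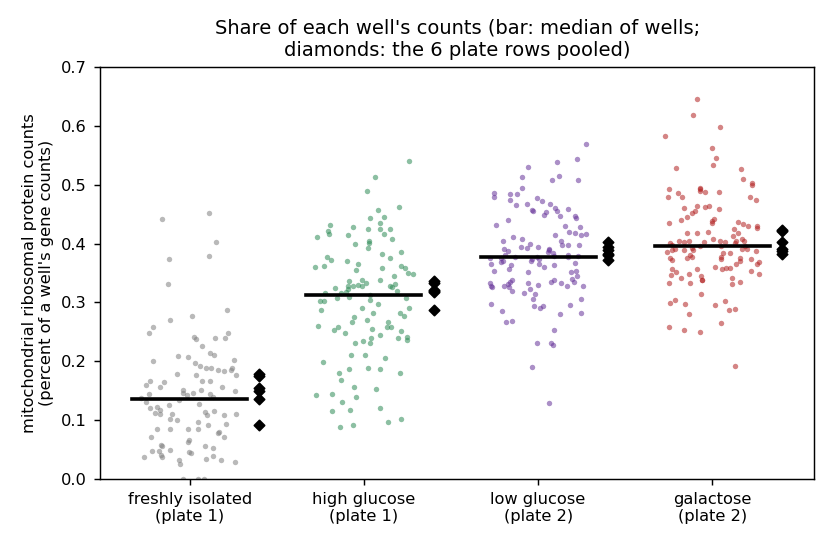
Share of gene counts from mitochondrial ribosomal protein genes in each well (points, percent), by condition and plate; bars are medians of wells and diamonds the 6 plate rows pooled. The median rises from 0.137% in freshly isolated wells to 0.313% in high glucose, and the diamonds of these conditions do not overlap, while single wells do.

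Within plate 1 the members together were 2.14-fold higher in high glucose than in freshly isolated cells (1.94 to 2.38). Per 1000 spike-in counts the sum went from 29.4 to 193, a 6.58-fold difference, beside 3.07-fold for all gene counts. A gene was taken as measured where the mean of both pools reached 10 CPM, and called higher or lower where the ratio was at least 1.5, or at most its inverse, and the interval left out 1. Of 64 measured members 27 were called higher, 0 lower and 37 neither, where 21.7% of all measured genes were called higher and 13.4% lower. The minimum itself favours such calls: 19 members passed it only through high glucose, and 11 of these were among the 27. At 10 CPM or more in both pools, 16 of 45 members were higher, beside 20.9% of all genes that met the same minimum. Where freshly isolated cells had at least 10 counts, 4 of 16 measured members were higher, a share close to the 20.03% of all such genes. With more than 3 counts there, the median ratio was 1.55 over 38 members and 1.12 over all genes. The median log2 ratio of 1.09 over the 64 measured members (0.34 for all measured genes) includes the 19, which had to differ to pass.

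Scaling moved these values. With TMM factors the median log2 ratio over all genes fell to 0.09, 1232 of all genes were higher and 1595 lower (13.9% higher), the members' summed ratio was 1.80 and 20 of 64 members were called higher. With median-of-ratios factors the median over all genes was 0.05, 1145 of all genes were higher and 1663 lower (12.7% higher), the members' ratio was 1.76 and 17 of 64 were called higher. Under CPM, 1927 of all genes were higher and 1186 lower. Without the wells that held markers of another type, the ratio was 2.20. Of 61 measured members 25 were then called higher, beside 20.2% of all genes. The remaining part of other cell types in the difference was not tested.

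Counts per member in freshly isolated cells were small. There, 4 members had no count, 26 had 1 to 3 and 38 had more, with a median of 4 counts and a maximum of 28, whereas each culture pool had at least 6 counts of every member. Median member levels in the 4 pools were 14.1, 36.1, 49.3 and 54.5 CPM. Intervals of single members are therefore wide: of the 37 called neither, 29 had an interval that includes the summed ratio of 2.14. The other 8, whose intervals lay below it, were Mrpl17, Mrpl24, Mrpl41, Mrpl48, Mrps17, Mrps25, Mrps27 and Mrps6.

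**Figure D2:**
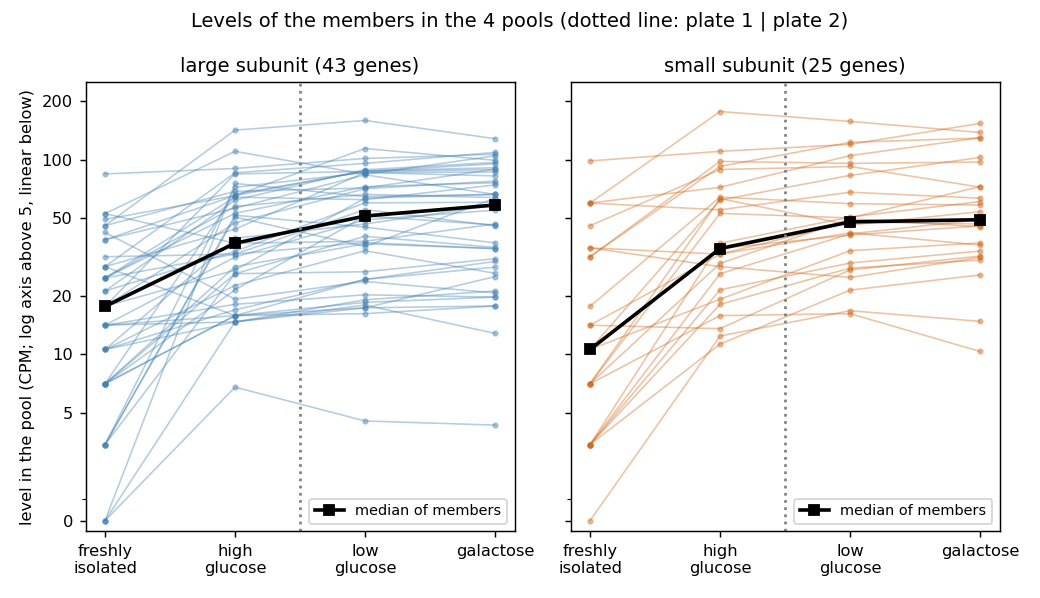
Level of each member in the 4 pools (CPM, log axis above 5 and linear below), large subunit left and small subunit right; thin lines are genes and black squares their median. Most lines step up between freshly isolated cells and high glucose on plate 1, and run nearly level between low glucose and galactose on plate 2.

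Among large subunit members, 15 of 41 measured were higher in high glucose than in freshly isolated cells, beside 21.7% of all measured genes. Mrpl19, of the bacterial L19 family, had 0 counts in freshly isolated cells, with an interval that reaches 13.0 CPM. It stood at 75.5, 64.6 and 66.3 CPM in the high glucose, low glucose and galactose pools. Against a floor of 3 counts (10.6 CPM) used in place of 0, it was 7.15-fold higher in high glucose. That fold depends on the floor and is not a lower bound. No freshly isolated row overlapped the high glucose rows (37.7 to 105 CPM). Mrpl35, of the bacterial L35 family, was at 3.52 CPM in freshly isolated cells (1 count) and at 72.1, 85.9 and 86.5 CPM in the same 3 cultures, a ratio within plate 1 of 20.5 (3.55 to 822). Mrpl44, which carries a ribonuclease III-like fold, had levels of 3.52, 51.8, 45.0 and 37.3 CPM and a ratio of 14.7 (2.51 to 594). Those upper bounds are large because each of these denominators rests on 1 count. Mrpl12, a stalk protein that recruits translation factors and also binds the mitochondrial RNA polymerase, was at 7.04 CPM (2 counts), 66.5, 87.1 and 88.9 CPM, a ratio of 9.44 (2.50 to 79.8). Its neighbour at the base of the stalk, Mrpl11, was at 10.6, 39.4, 46.7 and 58.5 CPM, a ratio of 3.73 (1.18 to 19.0).

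The most counted large subunit members gave tighter intervals. Mrpl45, which ties the ribosome to the inner membrane near the exit of the peptide tunnel, was at 45.8, 142, 159 and 128 CPM in the 4 pools, and 3.10-fold higher in high glucose (1.75 to 5.99). Its freshly isolated rows spread from 0 to 132 CPM and overlapped the high glucose rows at 120 to 179 CPM. Mrpl37, a protein without a bacterial counterpart, was at 28.2, 85.6, 95.7 and 109 CPM, a ratio of 3.04 (1.47 to 7.30), and no row overlapped within plate 1. Mrpl38, likewise specific to mitochondria, was at 52.8, 110.4, 84.2 and 105 CPM, a ratio of 2.09 (1.21 to 3.88). Mrpl17, at the rim of the exit tunnel, was at 84.5, 90.1, 101 and 107 CPM. It was the highest large subunit member in freshly isolated cells, and its ratio of 1.07 (0.67 to 1.76) did not pass the rule. Mrpl39, with levels of 49.3, 65.3, 114 and 99.2 CPM, had a ratio of 1.33 (0.73 to 2.57).

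Among small subunit members, 12 of 23 measured were higher in high glucose, beside 21.7% of all measured genes. This count, too, includes members that passed the minimum only through high glucose. Mrps18b, the member with the most counts of all, was at 59.8 CPM before culture and at 177, 157 and 138 CPM in the cultures, a ratio within plate 1 of 2.96 (1.79 to 5.20). Every freshly isolated row (34.2 to 87.5 CPM) lay below every high glucose row (113 to 216 CPM). Mrps5, which lies near the mRNA entry, was at 31.7, 92.4, 123 and 129 CPM, a ratio of 2.92 (1.46 to 6.60). Mrps22, without a bacterial counterpart, was at 31.7, 98.0, 95.7 and 97.3 CPM, a ratio of 3.09 (1.56 to 6.99). Mrps14, Mrps31 and Mrps7 were also higher. Mrps14 had levels of 10.6, 62.0, 83.0 and 103 CPM and a ratio of 5.87 (1.91 to 29.3). Mrps31 had levels of 7.04, 53.0, 50.2 and 72.7 CPM and a ratio of 7.52 (1.97 to 63.9), and passed the minimum only through high glucose. Mrps7, a protein of the subunit's head, had levels of 45.8, 89.0, 92.3 and 72.2 CPM and a ratio of 1.95 (1.07 to 3.81).

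The small subunit also held members near a ratio of 1. Mrps27, a pentatricopeptide repeat protein, was the highest member of all in freshly isolated cells, at 98.6 CPM, and stood at 110.4, 119.9 and 154 CPM in the cultures. Its ratio within plate 1 was 1.12 (0.73 to 1.77), and its freshly isolated rows spread from 23.0 to 234 CPM. Mrps2 had levels of 59.8, 72.1, 105 and 130 CPM and a ratio of 1.21 (0.70 to 2.19). Mrps12, whose bacterial relative lines the decoding centre, had 1 count in freshly isolated cells and was not measured within plate 1; its levels were 3.52, 11.3, 21.3 and 25.5 CPM.

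Measured members with a ratio below 1 were Mrpl24, Mrpl41, Mrpl48, Mrps17, Mrps25, Mrps36 and Mrps6, all with intervals that include 1. The lowest was Mrpl48, singled out after its values were seen, at 42.2 CPM in freshly isolated cells (12 counts) and 19.2, 23.6 and 20.6 CPM in the cultures. Its ratio was 0.45 (0.20 to 1.04), and it was called lower with TMM factors (0.38, 0.17 to 0.87) and with median-of-ratios factors (0.37, 0.17 to 0.85). Reads of Mrpl48 can be shared with its processed pseudogene Mrpl48-ps, at 17.6 and 7.89 CPM in the same pools of plate 1. Mrps6 shares its span and strand with Slc5a3, a transporter gene, so its counts are uncertain. In the annotation another gene overlapped the span of 34 members, 11 of them on the same strand, and whether counting used strand was not stated in the labels.

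**Figure D3:**
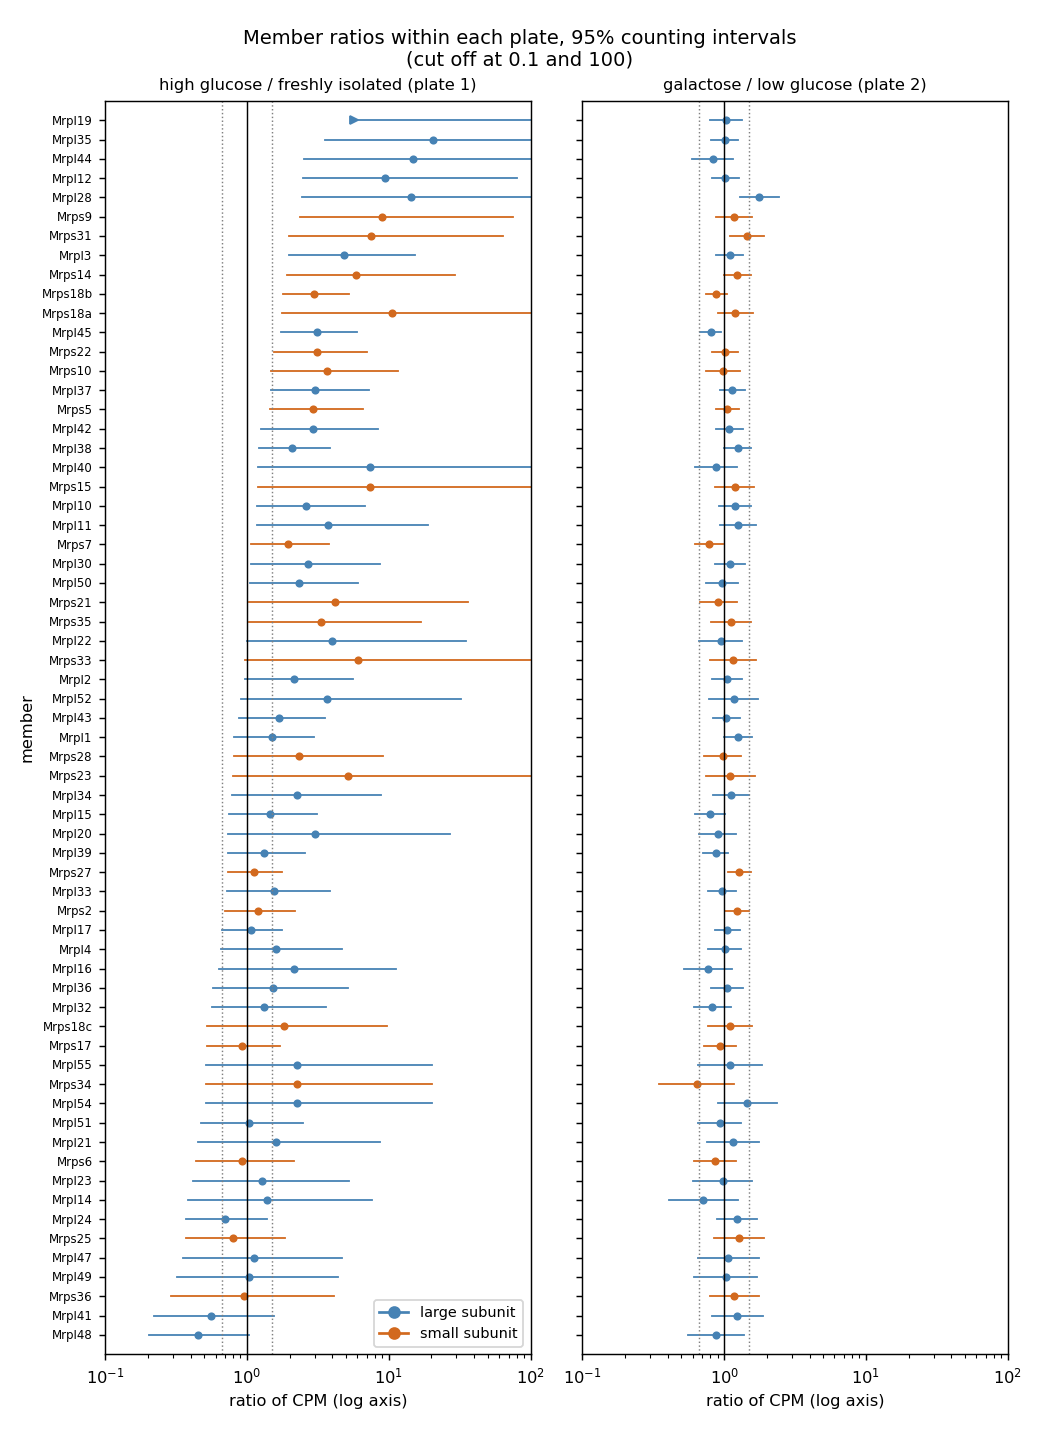
Ratio of CPM for each member measured on plate 1 (log axis, points) with its 95% counting interval (lines, cut off at 0.1 and 100), high glucose over freshly isolated on the left and galactose over low glucose on the right, ordered by the lower bound on the left; the arrowhead marks the lower bound of Mrpl19, which had 0 counts in freshly isolated cells. Dotted lines mark ratios of 1.5 and its inverse: on the left 27 members are called higher, while on the right the call is made for Mrpl28.

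The large and the small subunit differed between conditions by similar factors. Large subunit members summed to 915, 1939, 2392 and 2461 CPM in the 4 pools, and small subunit members to 581, 1269, 1469.8 and 1571 CPM. Within plate 1 the ratio was 2.12 (1.86 to 2.42) for the large and 2.18 (1.85 to 2.59) for the small subunit. The large subunit's share of member counts was 61.2% (56.4% to 65.8%), 60.4% (58.6% to 62.3%), 61.9% (60.8% to 63.1%) and 61.0% (60.0% to 62.1%), with intervals that all overlapped. By symbol 43 of the 68 members are large. The symbols do not follow the structure of the mammalian ribosome throughout: Mrps18a sits in the large subunit, and Mrps36 belongs to the 2-oxoglutarate dehydrogenase complex. With these moved or left out, the share was 62.0%, 61.9%, 63.7% and 63.0%, again with overlapping intervals.

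A split by origin depended on where the Mrps18 paralogs were placed. With all 3 among the bacterial homologues (42 members, 25 others, Mrps36 left out), the homologues made up 59.9% of counts in freshly isolated cells (55.001% to 64.57%), 62.7% in high glucose (60.9% to 64.5%), 64.6% in low glucose (63.5% to 65.8%) and 64.4% in galactose (63.3% to 65.4%), and all 4 intervals overlapped. This placement was chosen after seeing the data. In the list as first drawn up, Mrps18a and Mrps18b stood with the mitochondria-specific proteins (40 and 27 members), and the homologues' share was 55.6%, 56.0% (54.2% to 57.9%), 59.2% (58.0% to 60.4%) and 59.4% (58.3% to 60.5%). In that version the high glucose interval lay below those of the plate 2 pools. With these 2 genes moved, the share in high glucose (62.7%) was still below those on plate 2 (64.6% and 64.4%), by less and with overlapping intervals.

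The Mrps18 paralogs descend from 1 bacterial protein, and in mammals Mrps18b and Mrps18c occupy different places in the small subunit while Mrps18a lies in the large. Their levels in the 4 pools were 3.52, 37.2, 50.7 and 60.9 CPM for Mrps18a, 59.8, 177, 157 and 138 CPM for Mrps18b, and 10.6, 19.2, 34.0 and 37.3 CPM for Mrps18c. Mrps18b was the highest of the 3 in every pool. Within plate 1, Mrps18a passed the minimum of 10 CPM only through high glucose. The ratio of high glucose to freshly isolated was 10.6 for Mrps18a (1.77 to 430, on 1 count), 2.96 for Mrps18b and 1.81 for Mrps18c (0.52 to 9.66, not called), and the intervals overlapped. Between galactose and high glucose, across plates, Mrps18a (1.64, 1.11 to 2.48) and Mrps18c (1.95, 1.14 to 3.52) were higher, whereas Mrps18b had a ratio of 0.78 (0.64 to 0.95), short of the rule for a lower call. Mrps36, the member outside the ribosome, was at 14.1, 13.5, 27.1 and 31.9 CPM, with a ratio of 0.96 (0.29 to 4.09) within plate 1.

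Within plate 2, galactose and low glucose differed little. The members' summed ratio was 1.04 (1.01 to 1.08), and the large (1.03, 0.99 to 1.07) and small subunit (1.07, 1.01 to 1.13) overlapped. Of 67 measured members 1 was higher in galactose, 0 were lower and 66 were neither, where 1.53% of all measured genes were higher and 1.25% lower. The median log2 ratio was 0.07, beside 0.01 for all genes. Single ratios ran from 0.64 to 1.77.

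The member called higher in galactose was Mrpl28, of the bacterial L28 family. It had 129 counts (63.4 CPM) in galactose and 62 (35.7 CPM) in low glucose, a ratio of 1.77 (1.30 to 2.44). Its galactose rows (50.7 to 76.5 CPM) lay above all low glucose rows (17.6 to 48.8 CPM). On plate 1 Mrpl28 stood at 3.52 CPM before culture and 50.7 CPM with high glucose, and its ratio of low to high glucose was 0.71 (0.47 to 1.06). In wells thinned to 1000 counts, its ratio of galactose to low glucose reversed to 0.66. With 1 of 67 members called, the share is near that of all genes.

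Other members had intervals that left out 1 but ratios under the fold required. Mrps31 had a ratio of 1.45 (1.10 to 1.91), Mrps27 of 1.28 (1.07 to 1.54), Mrpl38 of 1.24 (1.00 to 1.54) and Mrps2 of 1.24 (1.02 to 1.501). On the other side stood Mrpl45 at 0.81 (0.68 to 0.96) and Mrps7 at 0.78 (0.62 to 0.99). These sizes are not adjusted for choosing members by their interval.

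Across plates the members were higher on plate 2, by a smaller factor than within plate 1, and this comparison holds plate and medium together. Low glucose was 1.20-fold above high glucose (1.15 to 1.26), with 10 of 67 measured members higher and 0 lower, where 7.98% of all genes were higher and 10.7% lower. Galactose was 1.26-fold above high glucose (1.20 to 1.31), with 16 of 67 higher and 0 lower, where 9.46% of all genes were higher and 12.1% lower. Scaled to spike-in counts these ratios were 1.01 and 1.08, so their size depends on the scaling. The 2 comparisons share the high glucose pool. Mrpl36, a small protein of the large subunit's core, stood at 27.0, 63.4 and 66.3 CPM in the 3 cultures, ratios of 2.35 (1.498 to 3.82) and 2.45 (1.58 to 3.96). Mrpl20 was at 21.4, 51.3 and 46.2 CPM, ratios of 2.40 (1.45 to 4.17) and 2.16 (1.31 to 3.74). Mrpl33 was at 43.9, 85.9 and 82.5 CPM, ratios of 1.96 (1.37 to 2.86) and 1.88 (1.32 to 2.73). Each of these was also above its freshly isolated level (17.6, 7.04 and 28.2 CPM) in both plate 2 pools, though not called within plate 1.

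Against freshly isolated cells the plate 2 pools were 2.58-fold (2.34 to 2.85, low glucose) and 2.70-fold (2.44 to 2.98, galactose) higher. Of 65 measured members 44 were higher in low glucose and 45 in galactose, with 0 lower, where 25.5% and 26.2% of all genes were higher and 16% and 16.2% lower. In each comparison 20 of the 65 passed the minimum only through the culture, and 16 and 18 of these were among the members called. At 10 CPM or more in both pools, 28 of 45 were higher in low glucose and 27 of 45 in galactose, beside 25.5% and 26.2% of all such genes. Where freshly isolated cells had at least 10 counts, 7 and 8 of 16 were higher, beside 24.3% and 24.7%. All 3 culture comparisons share the freshly isolated pool. The share of all genes called higher in all 3 was not worked out, so the overlap of calls has no such share beside it. In all of them 25 members were called higher, 14 at 10 CPM or more in freshly isolated cells and 11 under it, among them Mrpl11, Mrpl12, Mrpl19, Mrpl35, Mrpl45, Mrps5, Mrps18a, Mrps18b and Mrps22. In none were 19, among them Mrpl17, Mrpl41, Mrpl48, Mrps25 and Mrps36. The 19 include Mrpl46 and Mrps16, which were under the minimum in all 3 comparisons and could not be called. Mrps27 was called in galactose (1.56, 1.06 to 2.39) and not in low glucose (1.22, 0.82 to 1.88).

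The mitochondrial ribosome needs partners, and lists of these were compared within plate 1, where 21.7% of all measured genes were called higher. Mitoribosomal proteins under other symbols were 2.34-fold higher in high glucose in sum (1.65 to 3.41), with 3 of 4 measured called higher. Aurkaip1, a small subunit protein, went from 24.6 to 75.5 CPM (3.06, 1.41 to 7.91), Chchd1 from 10.6 to 57.5 CPM (5.44, 1.76 to 27.3) and Ptcd3 from 77.4 to 131 CPM (1.69, 1.06 to 2.80). Translation factors were 2.30-fold higher (1.66 to 3.26), with 3 of 8 called. Tufm, the elongation factor that brings transfer RNAs to the ribosome, went from 17.6 to 94.6 CPM (5.38, 2.22 to 17.0). Gfm1, the translocation factor, went from 42.2 to 78.9 CPM (1.87, 1.00 to 3.79), and Mtif3, an initiation factor, from 7.04 to 30.4 CPM (4.32, 1.09 to 37.5).

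Factors that assemble the ribosome or modify its RNA were 1.76-fold higher in sum (1.41 to 2.22), with 3 of 15 called, near the share of all genes. Mtg2, a GTPase of large subunit assembly, had 0 counts before culture and 24 with high glucose, and Mettl17, which acts on the small subunit, went from 7.04 to 37.2 CPM (5.28, 1.35 to 45.4). The most counted, Mterf3 (73.9 and 86.7 CPM) and Eral1 (66.9 and 79.99 CPM), had ratios of 1.17 (0.72 to 2.003) and 1.20 (0.71 to 2.10). Mitochondrial aminoacyl-tRNA synthetases were 1.38-fold higher (1.13 to 1.69; 3 of 11 called, among them Yars2 at 2.13, 1.05 to 4.89). Genes of mitochondrial DNA transcription and mRNA stability were 1.34-fold higher (1.10 to 1.64; 2 of 9). In both lists, too, the counts called are near the share of all genes. Of these, Lrpprc (162 and 166 CPM) and Tfam (77.4 and 106 CPM) were not called, while Tfb2m was (1.78, 1.04 to 3.25). Twnk was called as well (11.2, 1.88 to 455, on 1 count); it is the replicative helicase gene and lies beside Mrpl43.

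For scale, nuclear-encoded respiratory chain subunits were 1.83-fold higher (1.72 to 1.96; 34 of 67 higher, 1 lower), and cytosolic ribosomal proteins 1.44-fold (1.401 to 1.48; 27 of 68 higher, 0 lower). The members' interval (1.94 to 2.38) lay above that of the cytosolic ribosomal proteins and overlapped that of the respiratory chain. On plate 2 the ratios of galactose to low glucose were 1.00 (0.98 to 1.02) for the respiratory chain and 0.97 (0.95 to 0.98) for cytosolic ribosomal proteins.

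The ribosomal RNAs that these proteins bind went the other way by CPM within plate 1. Transcripts of the mitochondrial genome made up 34378 CPM of the freshly isolated pool and 14906 CPM of the high glucose pool, a ratio of 0.43 (0.42 to 0.45), with 12 of 13 called lower. The large subunit RNA mt-Rnr2 went from 6927 to 3789.9 CPM (0.55, 0.52 to 0.58) and the small subunit RNA mt-Rnr1 from 1848 to 750.3 CPM (0.41, 0.36 to 0.46). Per 1000 spike-in counts the direction differed: mt-Rnr2 stood at 136 and 228, mt-Rnr1 at 36.3 and 45.2, and all 13 transcripts together were 1.33-fold higher in high glucose. The members were 6.58-fold higher on that scale. Capture was by poly(A), which ribosomal RNAs carry only as short tails, so these counts need not follow their amounts. On plate 2 galactose and low glucose had mt-Rnr2 at 5103 and 5225 CPM (0.98, 0.95 to 1.00) and mt-Rnr1 at 1128 and 1326 CPM (0.85, 0.80 to 0.90).

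**Figure D4:**
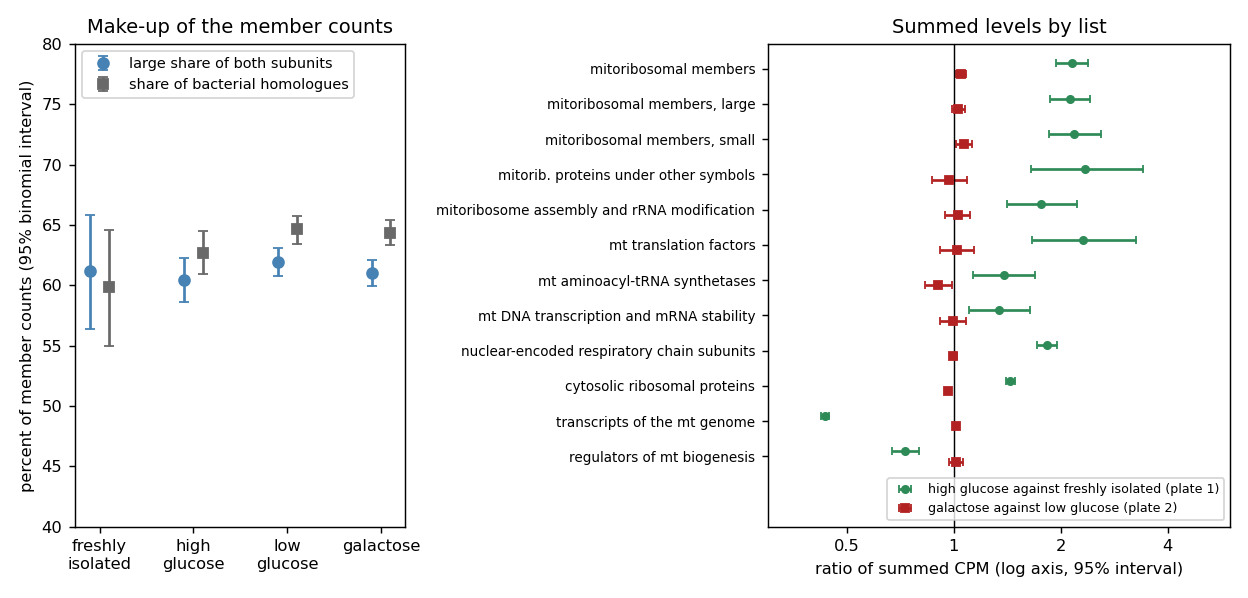
Left, share of member counts from the large subunit (circles) and from members with a bacterial homologue, Mrps18a and Mrps18b included (squares) in each pool, in percent with 95% binomial intervals (the axis starts at 40%); the intervals of each share overlap in all 4 pools. Right, ratio of summed CPM (log axis, 95% counting interval) for the members and the lists beside them, high glucose over freshly isolated (circles) and galactose over low glucose (squares); the members stand at 2.14 and 1.04 and the mitochondrial genome's transcripts at 0.43 and 1.01.

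Among listed regulators of mitochondrial gene expression, 2 of 6 measured were lower in high glucose and 0 higher. Of all measured genes 13.4% were lower and 21.7% higher. Myc, a growth regulator, went from 1517 to 1000.4 CPM (0.66, 0.59 to 0.74), and Hcfc1, a chromatin cofactor, from 637 to 392 CPM (0.62, 0.51 to 0.74). Nrf1, a transcription factor known for binding promoters of mitochondrial genes, was at 63.4 and 93.5 CPM (1.48, 0.88 to 2.61) and Yy1 at 144 and 197 CPM (1.37, 0.97 to 1.97). Gabpa, the ETS-family subunit of nuclear respiratory factor 2, had 0, 1, 1 and 0 counts in the 4 pools.

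Promoter sequences of the members were read as a description of what they share. RefSeq windows (build GRCm38.p6), from 250 bases before to 50 after the annotated start, were found for 60 of the 68 members (66 windows). They were searched on both strands for fixed letters. An ETS core, CCGGAAG, was in the windows of 35% of members and 12.9% of 17492 protein-coding genes. GCATGCGC, a core of the NRF1 site, was in 11.7% and 3.94%. AAGATGGCG, a YY1 site, was in 10.0% and 2.14%. At least 1 of the short NRF1, ETS and YY1 letters was in 46.7% of members and 17.6% of all genes. The GC box GGGCGG was in 50% and 49.2%, the E-box CACGTG in 8.33% and 8.91%, and TATAAA in 6.67% and 14.8%. Median GC content was 57.7% for members and 56.3% for all. Of measured members with a short NRF1, ETS or YY1 match 9 of 25 were higher in high glucose, and of those without 15 of 31. Of all measured genes 21.7% were higher, and these were not split by match. A match describes the letters and not a bound site.

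The windows of 4 members are printed, chosen after their values were seen: Mrpl35, Mrps18a and Mrps18b, which were higher in high glucose and hold matches of different kinds, and Mrpl12, which was higher and holds none of the 3. Capitals mark the matches, in 5′ to 3′ order of the gene's strand. Mrpl35 (chr6:71823735-71824034 on the minus strand) has the YY1 letters after its start. Mrps18a (chr17:46110754-46111053 on the plus strand) has ETS and YY1 letters. Mrps18b (chr17:35916391-35916690 on the minus strand) has a pair of NRF1 cores and an ETS core read on the opposite strand. Mrpl12 (chr11:120484387-120484686 on the plus strand) is all in lower case.
Mrpl35: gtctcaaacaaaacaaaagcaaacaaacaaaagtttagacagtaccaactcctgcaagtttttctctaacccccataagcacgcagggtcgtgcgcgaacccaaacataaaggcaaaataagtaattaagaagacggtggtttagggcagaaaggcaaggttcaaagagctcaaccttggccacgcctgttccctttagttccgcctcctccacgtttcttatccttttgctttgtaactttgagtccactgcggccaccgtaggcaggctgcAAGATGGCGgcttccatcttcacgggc
Mrps18a: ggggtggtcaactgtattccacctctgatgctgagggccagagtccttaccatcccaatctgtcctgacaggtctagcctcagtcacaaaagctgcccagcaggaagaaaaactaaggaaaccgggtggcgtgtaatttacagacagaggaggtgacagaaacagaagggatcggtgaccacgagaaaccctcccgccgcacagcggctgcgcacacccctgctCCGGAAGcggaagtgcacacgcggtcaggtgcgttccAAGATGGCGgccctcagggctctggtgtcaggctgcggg
Mrps18b: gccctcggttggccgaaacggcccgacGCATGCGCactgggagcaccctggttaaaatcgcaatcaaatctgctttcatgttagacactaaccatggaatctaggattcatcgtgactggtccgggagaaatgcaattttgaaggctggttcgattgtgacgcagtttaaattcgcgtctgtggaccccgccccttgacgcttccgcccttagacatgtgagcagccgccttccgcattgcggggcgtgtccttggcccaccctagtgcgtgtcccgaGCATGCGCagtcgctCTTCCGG
Mrpl12: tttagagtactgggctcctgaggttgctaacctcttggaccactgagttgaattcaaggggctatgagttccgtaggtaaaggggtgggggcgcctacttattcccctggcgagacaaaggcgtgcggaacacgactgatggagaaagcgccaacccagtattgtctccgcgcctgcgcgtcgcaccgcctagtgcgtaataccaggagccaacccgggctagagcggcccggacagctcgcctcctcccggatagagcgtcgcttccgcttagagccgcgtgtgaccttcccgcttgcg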

How the data were processed

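The deposited tables held raw counts per gene and well, which the authors made with no normalization, judged from the values: whole numbers with totals that differ between wells. Per the labels, the first read carried the UMI in bases 1 to 6 and the barcode in bases 7 to 14. edgeR is the tool listed in the submitters' processing notes, with no version or role. UMI collapsing, aligner, counter and genome build were not stated there or in the labels. The deposited well sheet gave the condition of 457 wells.

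A minimum of 500 gene counts and 250 genes per well kept 456 wells, and 1 high glucose well with 8 counts was dropped. No doublet caller was run. Of 21216 identifiers, 21132 (99.6%) were matched to a symbol in GENCODE M21, and unmatched ones (0.211% of counts) were kept in pool totals. The plates shared 200 barcode sequences, as separate libraries do. Counts were summed per condition and scaled to CPM (1 library per condition). Ratios carry exact conditional 95% intervals, CPM exact Poisson and shares exact binomial (Clopper-Pearson) ones, all for counting error only and not adjusted for picking members. Log2 ratios used a pseudocount of 1 CPM, and folds against 0 counts used a floor of 3 counts. The comparison method was run on simulated counts drawn with counting error only. Such counts lack the extra variance between wells, so that run does not show how the intervals hold for these wells. No test was run between conditions.

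Named members were the 5 most counted of each subunit, in each comparison the 4 higher and 4 lower members whose bound lay farthest from 1, and a fixed set of 10 (28 in all). Partner lists named at most 4 genes: the 2 most counted and the 2 with the farthest bound on plate 1. Members and lists, promoter motifs included, were chosen with earlier results of these data known. Alternatives covered 12 settings of scaling, weighting, well filters, thinning, level minimum and pseudocount. Python 3.11.15, numpy 2.4.6, scipy 1.17.1 and edgeR 4.0.16 (TMM factors) were used.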

Additional observations from a re-analysis of the deposited data

Results flagged for a closer look

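Processed pseudogenes of the members were left out of every comparison, yet some had counts above the floor of 3 counts. Mrpl23-ps1 held 139 counts over all kept wells, at 14.1, 22.5, 27.1 and 33.4 CPM in freshly isolated, high glucose, low glucose and galactose wells. Mrpl48-ps held 42 counts, with its highest level, 17.6 CPM, in freshly isolated cells and 7.37 to 8.65 CPM in the cultures. Mrps36-ps1 held 23 counts and Mrps36-ps2 held 15. Reads of a pseudogene and its parent cannot be told apart here where their sequences match. The values of Mrpl23, Mrpl48 and Mrps36 are therefore uncertain, by an amount that was not worked out.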

How the results depend on the processing

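No paired analysis was possible because each condition was 1 library. The members stayed higher in sum in high glucose than in freshly isolated cells under each setting that can change the sum. The level minimum and the pseudocount, among the 12 settings, do not enter it. For high glucose against freshly isolated cells, the summed ratio was 1.80 with TMM factors, 1.76 with median-of-ratios factors, 6.58 with spike-in scaling and 2.48 with thinned wells. The median log2 ratio was 0.85 with TMM factors, 0.82 with median-of-ratios factors, 2.62 with spike-in scaling, 1.25 with the total over protein-coding genes, 1.26 with equal weight per cell, 1.39 without wells holding markers of another type, 1.38 thinned and 0.85 with a pseudocount of 10 CPM. Members called higher numbered 17 of 64 with median-of-ratios factors (12.7% of all genes), 60 of 64 with spike-in scaling (82.8% of all genes), 12 of 52 thinned (7.31%) and 8 of 15 at a minimum of 50 CPM (28.7%). Members called lower numbered 1, Mrpl48, with equal weight, at least 2000 counts per well, TMM and median-of-ratios factors. All genes called lower in these settings were 1097 of 8823, 1151 of 8892, 1595 of 8878 and 1663 of 9046.

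For galactose against low glucose, thinning reversed the summed ratio to 0.95 and the median log2 ratio to -0.012, and the single ratios of Mrpl28 to 0.66, Mrps27 to 0.61 and Mrps31 to 0.44. The thinned ratios of Mrps27 (0.80) and Mrps36 (0.93) reversed for galactose against high glucose, and that of Mrps27 against freshly isolated cells (0.996). Thinning keeps few counts per member. Members called higher numbered 3 of 67 with equal weight (Mrpl28, Mrpl54 and Mrps35; 3.14% of all genes) and 0 at 50 CPM (0.125%), where Mrpl28 was not measured.

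For low glucose against high glucose, the summed ratio was 1.29 with TMM factors, 1.26 with equal weight and 1.01 with spike-in scaling. Its median log2 ratio was 0.40 with TMM factors, 0.45 with equal weight, 0.044 with spike-in scaling, 0.44 thinned and 0.17 at 50 CPM. Members called higher numbered 17 of 67 with TMM factors (11.6% of all genes), 19 of 67 with equal weight (9.46%), 3 of 67 with spike-in scaling (2.86%), 2 of 66 thinned (2.73%) and 2 of 29 at 50 CPM (8.83%). The last 3 shares of members are near or below those of all genes. Members called lower numbered 3 with spike-in scaling (Mrpl28, Mrpl38 and Mrps9), 1 with equal weight (Mrps9) and 1 thinned (Mrpl10). All genes called lower in these settings were 2029 of 9276, 1010 of 8847 and 196 of 8542.

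For galactose against high glucose, the summed ratio was 1.36 with TMM factors, 1.34 with equal weight, 1.08 with spike-in scaling, 1.18 with the protein-coding total and 1.11 thinned. Its median log2 ratio was 0.49 with TMM factors, 0.45 with equal weight, 0.16 with spike-in scaling, 0.29 with the protein-coding total, 0.30 thinned and 0.29 at 50 CPM. Members called higher numbered 26 of 67 with TMM factors (13.8% of all genes), 27 of 67 with equal weight (10.9%) and 7 of 67 with spike-in scaling (4.12%). They numbered 1 of 63 thinned (Mrps5, 2.71%) and 6 of 30 at 50 CPM (10.7%). With spike-in scaling 1 member was lower (Mrpl44), beside 1913 of 9305 genes.

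For low glucose against freshly isolated cells, the summed ratio was 2.33 with TMM factors, 2.21 with median-of-ratios factors, 6.62 with spike-in scaling and 2.90 thinned. Its median log2 ratio was 1.43 with TMM factors, 1.36 with median-of-ratios factors, 2.86 with spike-in scaling, 1.91 thinned, 1.18 at 50 CPM and 1.21 with a pseudocount of 10 CPM. Members called higher numbered 17 of 63 thinned (9.79% of all genes) and 13 of 18 at 50 CPM (34.0%). Those lower numbered 1 with median-of-ratios factors and with equal weight (Mrpl48), and 1 thinned (Mrpl24). All genes called lower in these settings were 1773 of 9013, 1409 of 8747 and 650 of 8394. For galactose against freshly isolated cells, the summed ratio was 2.28 with median-of-ratios factors and 7.12 with spike-in scaling. The median log2 ratio was 1.36 with median-of-ratios factors, 2.92 with spike-in scaling, 1.77 without wells of other markers, 1.20 at 50 CPM and 1.28 with a pseudocount of 10 CPM. Members called higher numbered 12 of 56 thinned (9.59% of all genes) and 16 of 20 at 50 CPM (34.6%). Mrpl48 was the 1 called lower with TMM factors, median-of-ratios factors, at least 2000 counts per well and without wells of other markers. All genes called lower in these settings were 1623 of 8915, 1813 of 9013, 1411 of 8786 and 1361 of 8825.

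The large subunit's share by structure was 63.7% in low glucose and 63.0% in galactose, and thinned it was 58.8% in low glucose. The share of wells with a member count was 50%, 74.3%, 87.5% and 86.8% thinned to 500 counts, 89.0%, 100%, 100% and 100% thinned to 2000, and 97.1%, 100%, 100% and 100% without thinning. The causes of these shifts were not tested. Among single named members in the settings planned, 1411 values stayed within their interval, 83 moved outside it (46 thinned, 36 with spike-in scaling, 1 with equal weight) and 6 reversed. Most settings reuse nearly the same counts and these intervals are wide, so staying inside was likely from the start and is no measure of robustness. Ratios against 0 counts were left out of this tally. Depth limits the freshly isolated pool most: 1 count there is 3.52 CPM and the interval of a count of 0 reaches 13.0 CPM.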
